A study of Rattus norvegicus with 24 samples.

Results

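Isg15, Mx2, Ifit2, Ifit3, Ifi27, Ifi35, Ifi44 and Ifi44l are effector genes of the interferon response, and their transcripts were followed in rat kidney through pregnancy. They are 8 of the 32883 genes in the RNA-seq count table, chosen by name as interferon-induced effectors, and all 8 were among the 14212 genes with enough reads to be tested. The kidneys came from 12 female rats, 2 months old by their age label and 6 to 8 weeks by the growth protocol, with 3 separate rats in each of 4 groups. CD-NP were non-pregnant and CD-P18 were pregnant, day 18, both of the outbred Sprague Dawley strain (CD), which the study took as healthy pregnancy. BN-NP were non-pregnant and BN-P18 were pregnant, day 18, both of the inbred Brown Norway strain (BN), which the study took as pregnancy with placental insufficiency. No rat carried a transgene or received an agent, and each library was made from a piece of kidney that held cortex and medulla together. In such bulk tissue, fewer cells of a type and less RNA per cell cannot be told apart.

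Type I interferons are secreted when a cell senses foreign or misplaced nucleic acid. They bind a receptor on the same or neighbouring cells, whose Janus kinases activate transcription factors. With IRF9 these enter the nucleus as a complex that binds interferon-stimulated response elements in the promoters of many genes. The products of these genes block viral entry, replication and translation, and in the kidney the programme is known from viral nephropathy and lupus nephritis. Isg15 encodes a ubiquitin-like protein that is joined to other proteins. Mx2 encodes a dynamin-like GTPase. Ifit2 and Ifit3 encode proteins built of tetratricopeptide repeats that bind viral RNA or the proteins around it. Ifi27 encodes a small hydrophobic membrane protein, Ifi35 a leucine zipper protein that partners with NMI, and Ifi44 and Ifi44l a pair of related proteins with antiviral action.

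Promoters are shown first because the response element can be read in their letters. RefSeq gave a promoter (250 bases before to 50 after the start) for 5 of the 8 genes, those of Ifit3, Ifi27, Ifi35, Ifi44 and Ifi44l, on the build GRCr8. They were searched on both strands for GAAANNGAAA, the core of the response element, and capitals mark each match (TTTCNNTTTC is the same core on the other strand). The intervals were chr1:241527076-241527375 (plus strand) for Ifit3, chr6:128355062-128355361 (plus) for Ifi27, chr10:86881020-86881319 (plus) for Ifi35, chr2:243303791-243304090 (minus) for Ifi44 and chr2:243328473-243328772 (plus) for Ifi44l.
Ifit3: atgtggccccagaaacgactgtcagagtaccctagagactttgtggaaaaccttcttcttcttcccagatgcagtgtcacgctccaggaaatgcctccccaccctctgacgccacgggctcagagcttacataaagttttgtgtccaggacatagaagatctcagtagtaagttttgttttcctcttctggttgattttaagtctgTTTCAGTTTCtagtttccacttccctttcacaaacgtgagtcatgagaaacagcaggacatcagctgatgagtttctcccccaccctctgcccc
Ifi27: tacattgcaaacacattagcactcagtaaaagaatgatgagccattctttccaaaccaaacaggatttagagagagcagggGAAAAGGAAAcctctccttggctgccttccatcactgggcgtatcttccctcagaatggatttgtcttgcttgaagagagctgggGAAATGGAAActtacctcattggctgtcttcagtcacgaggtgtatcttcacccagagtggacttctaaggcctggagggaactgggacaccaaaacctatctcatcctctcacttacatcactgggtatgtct
Ifi35: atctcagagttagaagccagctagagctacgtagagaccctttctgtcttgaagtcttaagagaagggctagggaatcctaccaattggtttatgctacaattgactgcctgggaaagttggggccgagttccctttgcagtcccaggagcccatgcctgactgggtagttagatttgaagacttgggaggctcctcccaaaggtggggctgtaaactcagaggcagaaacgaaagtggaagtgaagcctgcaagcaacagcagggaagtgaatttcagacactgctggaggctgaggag
Ifi44: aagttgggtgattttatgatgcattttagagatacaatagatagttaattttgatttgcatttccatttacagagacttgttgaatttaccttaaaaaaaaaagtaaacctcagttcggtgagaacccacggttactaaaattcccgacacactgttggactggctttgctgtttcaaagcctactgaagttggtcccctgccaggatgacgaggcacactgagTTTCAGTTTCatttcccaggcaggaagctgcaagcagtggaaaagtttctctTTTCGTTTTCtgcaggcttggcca
Ifi44l: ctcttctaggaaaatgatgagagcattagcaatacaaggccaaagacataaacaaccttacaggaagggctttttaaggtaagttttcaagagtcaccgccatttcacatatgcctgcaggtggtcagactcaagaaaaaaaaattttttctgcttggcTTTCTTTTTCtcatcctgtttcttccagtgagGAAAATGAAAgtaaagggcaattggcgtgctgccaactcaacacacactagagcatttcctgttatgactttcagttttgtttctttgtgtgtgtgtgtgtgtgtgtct

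The core was present in 4 of these 5 promoters and in 1312 of the 33469 RefSeq promoters of that length, or 3.92%. Ifit3 held it once, beginning 44 bases before the start. Ifi27 held it 2 times, at 169 and 84 bases before the start. Ifi44 held it 26 bases before and 27 bases after the start, and Ifi44l at 91 and 59 bases before it. The match nearest to the start was the same 10 letters, TTTCAGTTTC, in Ifit3 and Ifi44. In Ifi35 the letters were not found in this window. A second motif, TTCNNNGAA, was found in 1 of the 5 promoters (Ifi44l, 247 bases before the start) and in 8.87% of all promoters. These matches describe letters and not bound sites. In the same annotation Ifit2 and Ifit3 are neighbours, as are Ifi44 and Ifi44l, while the other members lie apart from them.

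The libraries held 8274159 to 11879451 reads on genes (median 9610369.5). The tissue label held against its markers, since Slc34a1, the phosphate transporter of the proximal tubule, lay between 1426 and 3137 CPM in the 12 rats. CPM are the reads of a gene scaled to a common library size, here with TMM factors, which corrects for depth but not for gene length, so that levels were compared between groups and never between genes. The fewest reads behind any level of a member were 17, for Isg15 in a CD-NP rat, and the most were 2456, for Ifi27 in a CD-P18 rat. Reads that fit several places in the genome were not counted, so Mx2, Ifit2, Ifit3 and Ifi27, which have relatives of like sequence near them, may have lost reads. A gene is called when edgeR's quasi-likelihood test gave a Benjamini-Hochberg adjusted p under 0.1 over all tested genes with a change of over 25%. Errors of log2 fold changes are standard errors.

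**Figure D1:**
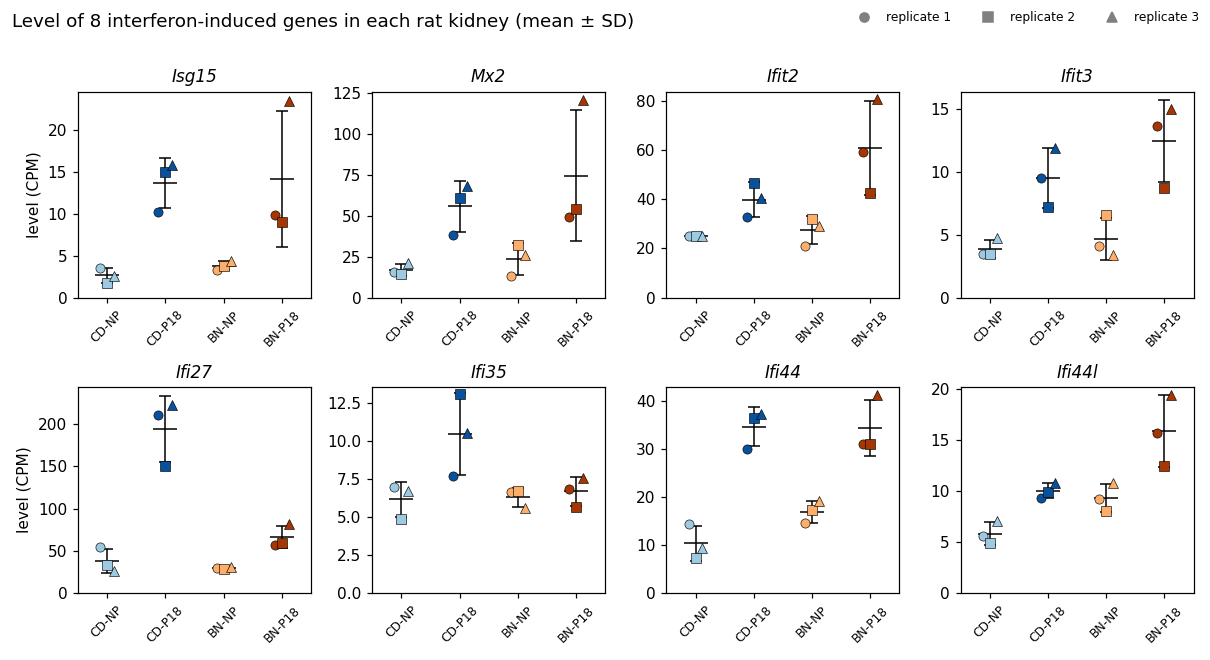
Level in CPM (linear axis from 0) of each of the 8 genes in the 12 rats, by group. Points are rats, marked by replicate number, and bars are the mean ± SD of 3 rats. In CD, every P18 point of all 8 genes stands above every NP point; in BN this is so for 7 genes, and the Ifi35 points overlap.

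The comparison of CD-P18 with CD-NP asks how healthy pregnancy changes these genes in the kidney. In CD rats 7 of the 8 genes rose with pregnancy, and Ifit2 did not pass the test. Of all genes tested, 2.56% were called higher in this comparison. The members other than Ifi27 could be identified only through a supplementary table of genes with a low unadjusted p in these same samples. They therefore lean towards genes that changed, and the shares over all genes, here and below, are given as a description. The groups did not overlap, with P18 above NP, for 8 of 8 members, against 11.1% of all genes. The median log2 fold change of the members was 1.5, and that of all genes tested was -0.0096.

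Ifi27 had the highest fold among the 8 in CD. Its levels were 54.0, 33.2 and 26.5 CPM in CD-NP and 211, 150 and 223 CPM in CD-P18. The lowest pregnant rat stood well above the highest non-pregnant rat. Ifi27 thus rose 5.12-fold, a log2 fold change of 2.36 ± 0.22 (edgeR, adjusted p = 0.000205).

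Isg15 was measured at 3.58, 1.79 and 2.63 CPM in CD-NP and at 10.2, 15.0 and 15.8 CPM in CD-P18. The groups stood apart, although the non-pregnant levels rest on 17 to 37 reads. Isg15 rose 5.05-fold, a log2 fold change of 2.34 ± 0.37 (edgeR, adjusted p = 0.00495).

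Ifi44 went from 14.3, 7.17 and 9.43 CPM in CD-NP to 30.0, 36.5 and 37.3 CPM in CD-P18. Its pregnant rats lay close together, while the non-pregnant rats differed 2.0-fold from lowest to highest. It rose 3.33-fold, a log2 fold change of 1.74 ± 0.20 (edgeR, adjusted p = 0.000832). Its neighbour Ifi44l changed less, from 5.61, 4.85 and 7.01 CPM to 9.34, 9.92 and 10.8 CPM. The difference was 1.72-fold, a log2 fold change of 0.78 ± 0.19 (edgeR, adjusted p = 0.0472). The call was lost without CD-NP replicate 2 (log2 fold change 0.67, adjusted p = 0.174) or CD-P18 replicate 3 (0.73, adjusted p = 0.145).

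Mx2 was at 15.6, 14.2 and 21.2 CPM in CD-NP and at 38.4, 60.7 and 68.2 CPM in CD-P18, with no overlap. It rose 3.28-fold, a log2 fold change of 1.71 ± 0.37 (edgeR, adjusted p = 0.0267). The call was lost without CD-NP replicate 2 (adjusted p = 0.106).

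Ifit3 was at 3.48, 3.48 and 4.71 CPM in CD-NP and at 9.51, 7.16 and 11.9 CPM in CD-P18. It rose 2.46-fold, a log2 fold change of 1.30 ± 0.28 (edgeR, adjusted p = 0.0267), and the call was lost without CD-NP replicate 2 (adjusted p = 0.103) or CD-P18 replicate 3 (adjusted p = 0.109). Ifit2, beside it in the genome, was at 25.1, 24.9 and 25.0 CPM in CD-NP and at 32.7, 46.7 and 40.5 CPM in CD-P18. The pregnant rats were all above the non-pregnant ones, yet the log2 fold change of 0.67 ± 0.21 (1.59-fold) missed the threshold (edgeR, adjusted p = 0.108). With DESeq2 in place of edgeR it passed (adjusted p = 0.0336).

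Ifi35 was at 6.96, 4.85 and 6.69 CPM in CD-NP and at 7.71, 13.1 and 10.5 CPM in CD-P18. The lowest pregnant rat lay only just above the highest non-pregnant rat. The log2 fold change of 0.75 ± 0.21 (1.68-fold) was called (edgeR, adjusted p = 0.0773), but the call was lost under several alternatives, as with only the 6 CD libraries in the fit (adjusted p = 0.143). Leaving out CD-NP replicate 2 left 3 of the 8 genes called in CD, and leaving out CD-P18 replicate 3 left 4. Over all genes the calls went from 669 to 341 and 327.

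The comparison of BN-P18 with BN-NP asks the same in the strain with compromised pregnancy. Again 7 of the 8 genes rose, with Ifi35 and not Ifit2 as the exception. Of all genes tested, 0.823% were called higher in BN. The groups did not overlap, with P18 above NP, for 7 members, against 7.85% of all genes. The median log2 fold change was 1.15 over the members and 0.0002 over all genes tested.

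Isg15 had the highest fold in BN. It was at 3.26, 3.77 and 4.43 CPM in BN-NP and at 9.88, 9.02 and 23.5 CPM in BN-P18. The groups stood apart, and replicate 3 of BN-P18 was far above its 2 companions. Isg15 rose 3.67-fold, a log2 fold change of 1.88 ± 0.36 (edgeR, adjusted p = 0.0384), and without BN-P18 replicate 3 by 1.31 on the log2 scale (adjusted p = 0.0672).

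Mx2 was at 13.0, 32.3 and 25.8 CPM in BN-NP and at 49.2, 54.1 and 120 CPM in BN-P18. Both groups were wide, with a 2.47-fold span among non-pregnant and a 2.45-fold span among pregnant rats, but they did not overlap. It rose 3.15-fold, a log2 fold change of 1.66 ± 0.36 (edgeR, adjusted p = 0.0614). Without BN-P18 replicate 3 the log2 fold change was 1.13 and not called (adjusted p = 0.184).

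Ifit2 was at 21.2, 32.0 and 29.3 CPM in BN-NP and at 59.4, 42.6 and 80.9 CPM in BN-P18. It rose 2.21-fold, a log2 fold change of 1.15 ± 0.21 (edgeR, adjusted p = 0.0284), and was still called without BN-P18 replicate 3 (log2 fold change 0.89, adjusted p = 0.0763). Ifit3 was at 4.13, 6.57 and 3.37 CPM in BN-NP and at 13.6, 8.75 and 15.0 CPM in BN-P18. It rose 2.66-fold, a log2 fold change of 1.41 ± 0.27 (edgeR, adjusted p = 0.0388). Thus both neighbouring Ifit genes were called in BN.

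Ifi27 was at 30.0, 27.9 and 31.0 CPM in BN-NP and at 57.3, 59.6 and 81.4 CPM in BN-P18. The SD among the non-pregnant rats was 5.36% of the mean, the smallest of any member in a BN group. Ifi27 rose 2.23-fold, a log2 fold change of 1.16 ± 0.23 (edgeR, adjusted p = 0.0394).

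Ifi44 was at 14.5, 17.2 and 19.1 CPM in BN-NP and at 30.9, 31.0 and 41.1 CPM in BN-P18. It rose 2.03-fold, a log2 fold change of 1.02 ± 0.20 (edgeR, adjusted p = 0.0384). Ifi44l was at 9.24, 8.03 and 10.7 CPM in BN-NP and at 15.7, 12.4 and 19.4 CPM in BN-P18. It rose 1.69-fold, a log2 fold change of 0.75 ± 0.18 (edgeR, adjusted p = 0.0851). This was the call nearest to the threshold in BN. It was lost with only the BN libraries in the fit (adjusted p = 0.138) and in 7 of the 12 fits that left out 1 library, those without any single CD-P18 rat, BN-NP replicate 1 or 2, or BN-P18 replicate 1 or 3 (log2 fold changes of 0.58 to 0.76, adjusted p of 0.104 to 0.335).

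Ifi35 was at 6.63, 6.69 and 5.58 CPM in BN-NP and at 6.87, 5.65 and 7.55 CPM in BN-P18. The groups overlapped, and the log2 fold change was 0.08 ± 0.22 (edgeR, adjusted p = 0.941).

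The BN calls rested on few rats. Without BN-NP replicate 1 no member was called (0 of 8, with 27 genes called in all, against 199 with every library). Without BN-NP replicate 2 or BN-P18 replicate 3 only 2 were called, of 48 and 81 genes in all. Isg15 and Ifit2 were the 2 members still called without BN-P18 replicate 3. In the fit without BN-NP replicate 1 the log2 fold changes of the 7 genes were between 0.74 and 1.77, and all 7 had an unadjusted p under 0.05 (edgeR). They had this with DESeq2 on all libraries too, which called 7 members and 294 genes in all.

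**Figure D2:**
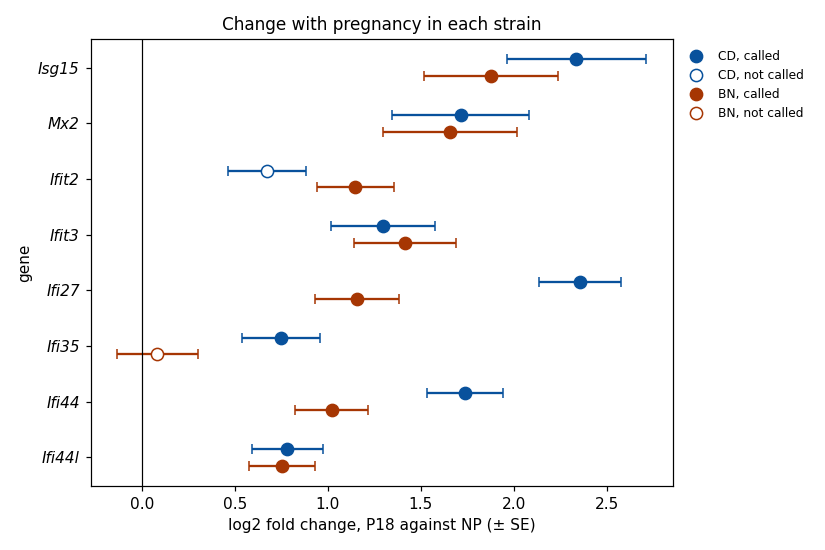
Log2 fold change of P18 against NP in CD and in BN rats for each of the 8 genes, with standard errors; filled points were called and open points were not. All 16 points lie above 0, from 0.08 for Ifi35 in BN to 2.36 for Ifi27 in CD, and Ifit2 in CD and Ifi35 in BN are the open ones.

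Averaged over the strains, which puts all 12 rats into a single comparison, 7 of the 8 genes rose, against 1.72% of all genes called higher. This comparison uses the same libraries as those within CD and BN and is not a further experiment. The log2 fold changes were 2.11 ± 0.26 for Isg15, 1.76 ± 0.16 for Ifi27, 1.68 ± 0.26 for Mx2, 1.38 ± 0.14 for Ifi44 and 1.36 ± 0.20 for Ifit3. Those of Ifit2 and Ifi44l were lower, at 0.91 ± 0.15 and 0.77 ± 0.13. The 7 adjusted p-values (edgeR) ran from 6.8e-05 for Ifi27 to 0.00694 for Ifi44l. Ifi35 had a log2 fold change of 0.42 ± 0.15 and was not called (edgeR, adjusted p = 0.192). The count of 7 held with each single library left out, apart from the fit without CD-P18 replicate 1, where Ifi35 passed too and 8 were called.

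Whether pregnancy acted differently in the strains was tested by the interaction, in which a negative value means a smaller change in BN. No member was called (0 of 8, edgeR quasi-likelihood, adjusted p under 0.1), where 0.943% of all genes were. At an unadjusted p under 0.05 (edgeR) there were 3 members, Ifi27, Ifi35 and Ifi44, and 1742 of the 14212 genes tested. DESeq2 called 1 member, Ifi27, and 330 genes in all. Ifi27 came nearest, with an interaction of -1.20 ± 0.31 on the log2 scale (edgeR, adjusted p = 0.132), since it rose 5.12-fold in CD and 2.23-fold in BN. It was called with DESeq2 (adjusted p = 0.086), with no filter on low counts (0.00718) and with the replicate number as a block (0.0993). Leaving out 1 library at a time gave adjusted p-values from 0.0196 to 0.292, with calls in the fits without CD-NP replicate 1, CD-P18 replicate 2 and BN-P18 replicate 3. The interaction of Ifi44 was -0.71 ± 0.28 (adjusted p = 0.319), and without CD-NP replicate 1 it was -1.04 and called (adjusted p = 0.0746). That of Ifi35 was -0.67 ± 0.30 (adjusted p = 0.396). The interactions of the other 5 genes lay between -0.46 (Isg15) and 0.48 (Ifit2), with adjusted p-values of 0.561 or more. The change in Ifit2 (not called in CD, called in BN) and in Ifi35 (called in CD, not called in BN) was therefore not shown to differ between the strains.

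The strains themselves were compared at each stage. Before pregnancy BN-NP and CD-NP differed in 2 of the 8 genes, both higher in BN, against 3.83% of all genes called higher in BN. These were the neighbours Ifi44 and Ifi44l. Ifi44 was at 14.5 to 19.1 CPM in BN-NP and at 7.17 to 14.3 CPM in CD-NP, and the groups just failed to overlap. Its log2 fold change of BN against CD was 0.71 ± 0.21 (1.63-fold; edgeR, adjusted p = 0.0693). Ifi44l ranged from 8.03 to 10.7 CPM in BN-NP against 4.85 to 7.01 CPM in CD-NP, and its log2 fold change was 0.69 ± 0.20 (1.61-fold; edgeR, adjusted p = 0.0561). Both calls were lost without CD-NP replicate 2 or BN-NP replicate 3, when 0 members were called by edgeR (2 at an unadjusted p under 0.05). That of Ifi44 was also lost without CD-NP replicate 3 (adjusted p = 0.184) or BN-NP replicate 2 (0.172). With only the libraries compared it was lost too (0.126). That of Ifi44l was also lost without CD-NP replicate 1 (0.109) or BN-NP replicate 1 (0.105). DESeq2 on all libraries called 2 members and 1225 genes in all. The other 6 genes overlapped between the strains, with log2 fold changes from -0.36 for Ifi27 to 0.51 for Isg15 and adjusted p-values of 0.413 or more.

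At day 18 the strains differed in 4 of the 8 genes, 2 higher and 2 lower in BN, against 9.6% of all genes called in either direction. Ifi27 was the clearest. It was at 57.3 to 81.4 CPM in BN-P18 and at 150 to 223 CPM in CD-P18, a log2 fold change of -1.56 ± 0.21 (edgeR, adjusted p = 0.000573), and stayed called in each fit that left out 1 library (adjusted p of at most 0.00556). Ifi35 was also lower in BN, at 5.65 to 7.55 CPM against 7.71 to 13.1 CPM, a log2 fold change of -0.64 ± 0.21 (edgeR, adjusted p = 0.0824). Its groups were separated by a narrow gap. The call was lost with the replicate block (adjusted p = 0.109), with only the libraries compared (0.117) and in 6 of the 12 fits that left out 1 library, those without CD-P18 replicate 2 or 3, BN-NP replicate 2 or any single BN-P18 rat (adjusted p of 0.104 to 0.262).

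Ifi44l was higher in BN-P18, at 12.4 to 19.4 CPM against 9.34 to 10.8 CPM, a log2 fold change of 0.66 ± 0.18 (1.58-fold; edgeR, adjusted p = 0.0376). The call was lost without CD-P18 replicate 1 (log2 fold change 0.61, adjusted p = 0.131) or BN-P18 replicate 3 (0.48, adjusted p = 0.154). Ifi44l was higher in BN at both stages by nearly the same size, but neither call held in every fit that left out 1 library. Ifit2 was at 42.6 to 80.9 CPM in BN-P18 and at 32.7 to 46.7 CPM in CD-P18. These groups overlapped, and its log2 fold change was 0.61 ± 0.20 (edgeR, adjusted p = 0.0841). The call was lost with only the libraries compared (adjusted p = 0.124) and held in 6 of the 12 fits that left out 1 library. It was lost without CD-NP replicate 2, CD-P18 replicate 1 or 3, BN-NP replicate 3, or BN-P18 replicate 1 or 3. The adjusted p-values of those fits ran from 0.101 to 0.316, and without BN-P18 replicate 3 the log2 fold change was 0.35. Isg15, Mx2, Ifit3 and Ifi44 overlapped between the pregnant groups, with log2 fold changes of 0.05, 0.42, 0.38 and -0.01. Without BN-P18 replicate 3 only 1 member, Ifi27, was called, and without CD-P18 replicate 1, CD-P18 replicate 3 or BN-P18 replicate 1 there were 2. Reads were aligned to an assembly of the BN strain, so a CD transcript that differs from it in sequence may lose reads. Its part in these differences was not tested.

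**Figure D3:**
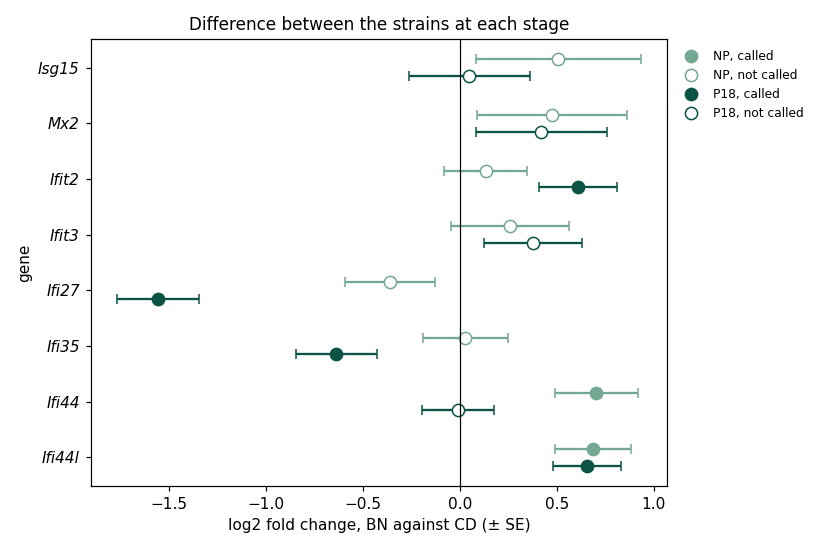
Log2 fold change of BN against CD at NP and at P18 for each of the 8 genes, with standard errors; filled points were called and open points were not. Ifi44l lies near 0.7 at both stages, Ifi44 moves from 0.71 at NP to -0.01 at P18, and Ifi27 moves from -0.36 to -1.56.

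Put in order, the group levels of Isg15, Mx2, Ifit2, Ifit3 and Ifi44l ran CD-NP, BN-NP, CD-P18, BN-P18 by their means. For Isg15 the means ± SD (n = 3) were 2.67 ± 0.893, 3.82 ± 0.583, 13.7 ± 3.03 and 14.1 ± 8.12 CPM, and the strains did not pass the test at either stage. For Mx2 they were 17.0 ± 3.67, 23.7 ± 9.77, 55.8 ± 15.5 and 74.6 ± 39.8 CPM, and again the strains did not pass the test at either stage. For Ifi44l they were 5.83 ± 1.10, 9.34 ± 1.36, 10.02 ± 0.736 and 15.8 ± 3.53 CPM, so that non-pregnant BN kidneys held about as much as pregnant CD kidneys, a pair that was not tested. For Ifi44 the pregnant groups were level, with CD-P18 at 34.6 ± 4.0 and BN-P18 at 34.3 ± 5.88 CPM. For Ifi27 the order was another, with BN-NP lowest at 29.6 ± 1.59 CPM, then CD-NP at 37.9 ± 14.3, BN-P18 at 66.1 ± 13.3 and CD-P18 at 195 ± 39.0 CPM. For Ifi35 the group means were 6.17 ± 1.15 in CD-NP, 6.30 ± 0.624 in BN-NP, 6.69 ± 0.960 in BN-P18 and 10.4 ± 2.70 CPM in CD-P18. The lowest CD-P18 rat, at 7.71 CPM, was only just above the highest BN-P18 rat, at 7.55 CPM.

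Within a group the 8 genes often ranked the rats alike. BN-P18 replicate 3 was the highest of its group for 8 of 8 genes, while it was the highest for 33.2% of all genes tested. CD-NP replicate 2 was the lowest of its group for 7 genes, and CD-P18 replicate 3 was the highest for 6. Over all genes these rats were lowest or highest about as often as their companions, at 32.1% and 33.0%. On the mean of the 8 scaled levels, in SD from each gene's mean over the 12 rats, BN-P18 replicate 3 stood at 1.31 and CD-NP replicate 2 at -1.32, and the other pregnant rats between 0.31 and 0.98. The non-pregnant rats stood between -1.32 and -0.38. The labels give no batch or date that sets these rats apart.

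**Figure D4:**
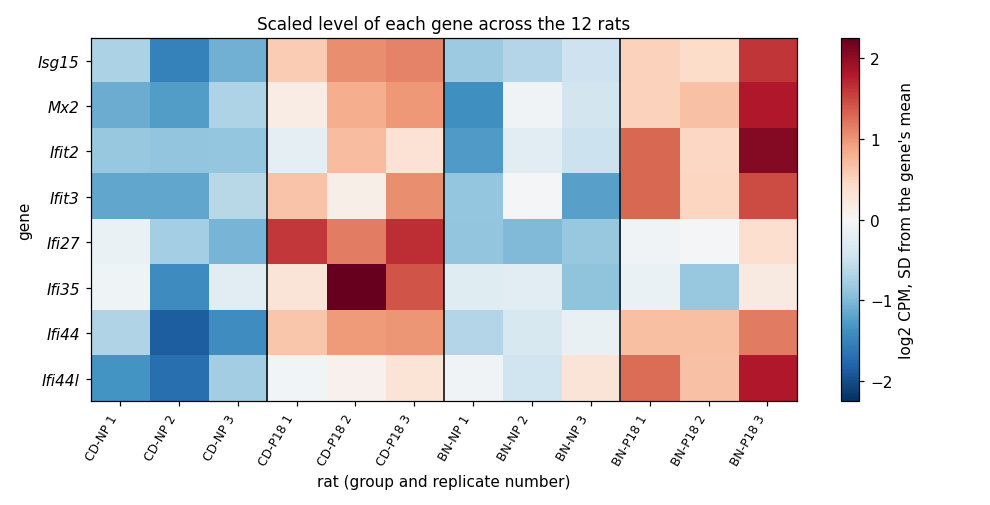
Heat map of log2 CPM of each gene (rows) in each of the 12 rats (columns, parted by group), in SD from that gene's mean over the rats; red is above and blue below the mean. The P18 columns are mostly red and the NP columns mostly blue; BN-P18 replicate 3 is the deepest red column in BN, and Ifi27 and Ifi35 are red mainly in CD-P18.

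The genes most like a member were sought among the 2922 tested genes that could be given a symbol, as the smallest mean absolute difference of scaled log2 CPM over the 12 rats, in SD. These symbols came through the supplementary table of genes with a low unadjusted p in these same samples, so this pool leans towards genes that changed. The rats share the pregnancy groups, so a small difference describes a common pattern and nothing further. Isg15 lay nearest to Ddx58, the cytosolic RNA sensor RIG-I, at 0.148 SD, and next to Apol9a at 0.191 SD. Mx2 lay nearest to Zc3hav1 (0.190 SD), which encodes a zinc finger antiviral protein, and to Rnf213 (0.216 SD), a large ubiquitin ligase. Ifit2 lay nearest to Znfx1 (0.243 SD) and Herc6 (0.300 SD), Ifit3 to the GTPase gene Irgm (0.280 SD) and the helicase gene Helz2 (0.316 SD), and Ifi44 to Ddx58 (0.203 SD) and Parp9 (0.217 SD). Ifi44l lay nearest to Fblim1 (0.238 SD) and Herc6 (0.277 SD), Ifi27 to Parp12 (0.254 SD) and LOC103689965 (0.257 SD), and Ifi35 to Basp1 (0.273 SD) and LOC690000 (0.375 SD). The 5 genes nearest to the mean pattern of the 8 were Apol9a (0.155 SD), Ddx58 (0.175 SD), Parp9 (0.220 SD), Oas2 (0.224 SD) and Lgals9 (0.227 SD), where the median over the other genes was 1.11 SD.

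Among themselves the members fell at different distances on the same measure. Isg15 and Ifi44 were the closest pair (0.212 SD), then Isg15 and Mx2 (0.287 SD) and Mx2 and Ifit2 (0.295 SD). The neighbours Ifit2 and Ifit3 were 0.416 SD apart, and the neighbours Ifi44 and Ifi44l 0.503 SD. Ifi27 and Ifi44l were the farthest apart (1.03 SD), the former being highest in CD-P18 and the latter in BN-P18. Ifi27 and Ifi35, both highest in CD-P18, were 0.555 SD apart.

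Other parts of the pathway were read from lists of known genes. Symbols could be given only through a supplementary table of the study that lists genes with a low unadjusted p in these same samples, so the listed genes with values lean towards genes that changed, and their counts are a description. Of 10 interferon ligand genes none had an identifier, and their levels were not analysed here. Of 9 receptor and Janus kinase genes 3 could be tested. In CD 1 was called, Ifngr1, a subunit of the interferon gamma receptor (log2 fold change 0.39 ± 0.10; edgeR, adjusted p = 0.0446), and in BN 0 were called.

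Among genes for the transcription factors of the pathway, Irf9, the DNA-binding subunit of the complex that binds the response element, rose by 1.38 ± 0.11 on the log2 scale in CD (edgeR, adjusted p = 6.7e-05) and by 1.12 ± 0.11 in BN (adjusted p = 0.000533). Irf7, which amplifies interferon production, rose by 1.92 ± 0.33 in CD (adjusted p = 0.00715) and by 1.45 ± 0.33 in BN (adjusted p = 0.0766). Stat2 rose by 0.56 ± 0.11 in CD (adjusted p = 0.0147) and by 0.47 ± 0.11 in BN (adjusted p = 0.0776). The genes named here are not all those of the list. In CD, Irf1 (log2 fold change -0.28), Irf8 (-0.18) and Stat3 (0.11) were not called (adjusted p of 0.267 or more). In BN, Irf1 (0.37) and Irf8 (0.27) were not called (adjusted p of 0.285 or more), and Stat3 (0.27, adjusted p = 0.0877) changed by less than 25%. Socs3, an inhibitor gene of the same list, was called in CD (1.55 ± 0.45; edgeR, adjusted p = 0.0863). In BN it was not called (1.31 ± 0.43, adjusted p = 0.250).

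Of 10 nucleic acid sensor genes 6 could be tested, and 4 rose in CD and 6 in BN. Ddx58 rose by 1.02 ± 0.13 on the log2 scale in CD (edgeR, adjusted p = 0.00119) and by 0.57 ± 0.13 in BN (adjusted p = 0.0767). Tlr7, an endosomal sensor of single-stranded RNA, rose by 1.22 ± 0.19 in CD (adjusted p = 0.00332) and by 0.92 ± 0.20 in BN (adjusted p = 0.0604).

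The enzymes that join the Isg15 protein to its targets or remove it moved with Isg15 itself. All 5 of the listed genes could be tested, and 5 rose in CD and 4 in BN. Usp18, the protease that removes Isg15 and damps receptor signalling, rose by 1.99 ± 0.37 on the log2 scale in CD (edgeR, adjusted p = 0.0119) and by 1.99 ± 0.39 in BN (adjusted p = 0.0394). Herc6, the ligase for Isg15 in rodents, rose by 0.89 ± 0.15 in CD (adjusted p = 0.00782) and by 1.18 ± 0.15 in BN (adjusted p = 0.00322). Uba7, the activating enzyme, rose by 0.55 ± 0.14 in CD (adjusted p = 0.0607) and by 1.01 ± 0.14 in BN (adjusted p = 0.00796).

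Of 12 genes for enzymes that act on double-stranded RNA 9 could be tested, and 8 rose in CD and 6 in BN. Oas2, an oligoadenylate synthase, rose by 2.42 ± 0.29 on the log2 scale in CD (edgeR, adjusted p = 0.000832) and by 2.03 ± 0.30 in BN (adjusted p = 0.00826). Of 36 other interferon-induced effectors 23 could be tested, and 19 rose in CD, 18 in BN and none fell in either. Their median log2 fold change was 0.68 in CD and 0.71 in BN, below the medians of the 8 members. Helz2 rose by 0.53 ± 0.07 on the log2 scale in CD (edgeR, adjusted p = 0.0020) and by 0.68 ± 0.07 in BN (adjusted p = 0.00166). Parp12 rose by 1.12 ± 0.12 in CD (adjusted p = 0.000411) and by 0.81 ± 0.12 in BN (adjusted p = 0.00999).

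Markers of cell types that the tissue could hold were set beside these changes. Of 6 macrophage markers 3 could be tested (Cd68, Csf1r and Mrc1), and all 3 rose in CD and none in BN. Their summed level went from 62.2 to 74.2 CPM at NP to 91.6 to 119 CPM at P18 in CD, and from 64.5 to 70.8 CPM to 79.9 to 83.3 CPM in BN. Mrc1, the mannose receptor of tissue macrophages, rose from 5.16 ± 0.649 to 18.9 ± 1.12 CPM in CD, while in BN it was 7.94 ± 1.04 CPM at NP and 6.89 ± 1.94 CPM at P18 (SD, n = 3). Its interaction was -2.08 ± 0.27 on the log2 scale (edgeR, adjusted p = 0.00698). Cd68 and Csf1r did not share this pattern. In BN their log2 fold changes were 0.33 ± 0.15 and 0.32 ± 0.12 (edgeR, adjusted p = 0.490 and 0.318). Their interactions were -0.22 ± 0.21 and -0.08 ± 0.17 (edgeR, adjusted p = 0.747 and 0.900). Of 7 T and NK cell markers only Cd4 could be tested, at 21.6 to 29.4 (CD-NP), 26.6 to 32.5 (CD-P18), 16.6 to 19.5 (BN-NP) and 23.3 to 25.9 (BN-P18) CPM. Of 4 plasmacytoid dendritic cell markers 2 could be tested (Il3ra and Irf8), summing to 25.8 to 30.3, 18.2 to 27.6, 18.01 to 19.6 and 19.9 to 23.3 CPM in the same order. Of 4 B cell markers none had an identifier, and of 4 neutrophil markers 1 had an identifier (S100a9) and it was filtered out for low counts. Of 4 endothelial markers 2 could be tested (Cdh5 and Tie1), summing to 148 to 153, 123 to 138, 156 to 169 and 139 to 154 CPM. Of 10 kidney epithelium and podocyte markers 5 could be tested, and 4 fell in CD and 1 in BN, with sums of 3614 to 4348, 2546 to 3100, 2886 to 3387 and 2374 to 3015 CPM. No marker that could be tested was at 0 in any rat. Genes with few reads had been filtered out before, so this does not show which cell types were present. The part of these shifts in the levels of the 8 genes was not tested.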

How the data were processed

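Kidney RNA of 12 rats was measured. Per the labels, libraries were stranded with ribosomal RNA depleted. The authors used Trimmomatic on the reads, STAR 2.5.2 for alignment to Rnor6.0 and HTSeq 0.6.1 for a count of reads per gene (versions from the submitters' processing notes). They deposited raw counts. The annotation release and strand setting are not given in the sources used here. Between 72.5% and 75.6% of the table's entries per library stood on lines of the counter's tally that name no gene and were left out.

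With R 4.3.3 and edgeR 4.0.16, filterByExpr kept 14212 genes, TMM factors scaled the libraries, and a single quasi-likelihood model of the 12 libraries gave all comparisons. Standard errors were derived from the F statistic. The fit was tested on simulated data. The count table gives Ensembl identifiers alone. Symbols were paired by matching log2 fold changes and levels of a supplementary table of the study to the refitted counts within 0.02, for 3063 of 3064 symbols, and no value of that table was used otherwise. Scaled levels are log2 CPM (prior count 2). The 8 genes and all lists were chosen with earlier results of these data known. The text names the 8 members, the 2 genes nearest to each member, the 5 nearest to their mean pattern, and up to 3 genes of lowest p per list. Outside this rule, Irf1, Irf8, Stat3, Socs3, Trim25, Oas1b and Rtp4 were named after their values were seen. Counts over the list of transcription factors are not reported here. The methylation (RRBS) lists were not used, since no annotation of their build was at hand to place the 8 genes. Other scaling, filters, thresholds, DESeq2 1.42.0, a replicate block and leaving out each library were tried as alternatives.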

Additional observations from a re-analysis of the deposited data

How the results depend on the processing

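The members called in CD stayed at 6 to 8 of 8, those in BN at 5 to 7 and those averaged over the strains at 7 under the alternatives that kept every library of the groups compared. Stricter thresholds (adjusted p under 0.05, fold over 1.5) left 0 members called between BN-NP and CD-NP and 2 between BN-P18 and CD-P18. With only the libraries compared in the fit, 1 and 2 members were called in these 2 comparisons. In the interaction, 1 member (Ifi27) was called with no filter on low counts, with DESeq2 and with the replicate block.

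Leaving out 1 library at a time gave 3 to 8 members called in CD, 0 to 7 in BN, 0 to 2 between BN-NP and CD-NP, 1 to 4 between BN-P18 and CD-P18, 7 to 8 averaged over the strains and 0 to 2 in the interaction. These fits have fewer samples. Over all genes, calls went from 669, 199, 1191, 1365, 422 and 134 in the 6 comparisons to 225, 70, 496, 616, 167 and 64 with stricter thresholds. With no filter they went from 199 to 352 in BN and from 134 to 329 in the interaction. With only the libraries compared, BN had 128. With DESeq2 the interaction had 330.

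No called member changed direction. Among the values that were not called, the log2 fold change of BN-P18 against CD-P18 became -0.025 for Isg15 with the replicate block and 0.019 for Ifi44 with upper-quartile scaling, and the interaction of Ifi44l became 0.0043 with upper-quartile scaling. With 1 library left out the log2 fold change ran from -0.0082 to 0.20 for Ifi35 in BN. Between BN-NP and CD-NP it ran from -0.052 to 0.45 for Ifit3 and from -0.12 to 0.13 for Ifi35. Between BN-P18 and CD-P18 it ran from -0.53 to 0.29 for Isg15, from -0.11 to 0.65 for Mx2 and from -0.16 to 0.060 for Ifi44. The interaction ran from -0.58 to 0.22 for Mx2, from -0.079 to 0.43 for Ifit3 and from -0.20 to 0.12 for Ifi44l. The causes were not tested.

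The labels number the rats 1 to 3 in each group and do not say whether rats of the same number were handled together. The correlation of their deviations from the group means ran from -0.19 to 0.27 over 18 pairs of libraries, above 0.1 in 3. These were BN-NP with BN-P18 for replicate 1 (0.27) and replicate 3 (0.20), and CD-P18 with BN-NP for replicate 2 (0.14). With the replicate block 7, 7, 2, 3, 7 and 1 members were called, against 7, 7, 2, 4, 7 and 0 without it, and calls over all genes went from 199 to 286 in BN and from 134 to 235 in the interaction. Scaling moved the median of all genes by at most 0.033 on the log2 scale. Upper-quartile scaling moved the share of interaction calls above 0 from 47.0% to 58.1%. The planned tests of CpGs at the 8 genes were not run, because the genes could not be placed on the build of the methylation lists.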

Other observations

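Between the strains, genes around the 8 members also differed in single cases. Herc6, the Isg15 ligase and the second gene in likeness to both Ifit2 and Ifi44l, was higher in BN-P18 than in CD-P18, at 125 ± 20.2 against 75.2 ± 12.9 CPM (SD, n = 3), a log2 fold change of 0.73 ± 0.15 (edgeR, adjusted p = 0.00890). Trim25, a ligase that activates RIG-I, was lower in BN-P18, at 48.6 ± 5.66 against 72.3 ± 3.91 CPM, a log2 fold change of -0.58 ± 0.11 (edgeR, adjusted p = 0.00791). Parp12, the gene most like Ifi27, was lower in BN-P18 as well, at 25.7 ± 3.55 against 35.9 ± 2.63 CPM (log2 fold change -0.49 ± 0.11; edgeR, adjusted p = 0.0195). Oas1b was higher in BN-NP than in CD-NP, at 9.10 ± 3.84 against 3.35 ± 1.64 CPM (log2 fold change 1.42 ± 0.41; edgeR, adjusted p = 0.0582). Rtp4 was lower in BN-NP, at 2.66 ± 0.554 against 5.10 ± 0.446 CPM (log2 fold change -0.94 ± 0.28; edgeR, adjusted p = 0.0651). These genes were named after their values were seen, and their interactions with pregnancy were not called (adjusted p of 0.345 or more).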
